A study of Rattus norvegicus with 12 samples.

Results

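Ventral dentate gyrus of Flinders Sensitive Line (FSL) rats was set against that of Flinders Resistant Line (FRL) rats, both on vehicle alone. The comparison holds 6 of the 12 libraries of the series, chosen by their titles: FSL vehicle 1, 2 and 3, and FRL vehicle 1, 2 and 3. Both groups were males with the strain label Sprague-Dawley, and both drank tap water, the vehicle, over the 7 days for which other animals of the study received a drug. The other 6 libraries came from FSL males that drank 0.3% (w/v) L-acetyl-carnitine (LAC) in that water, 3 labelled responders and 3 non-responders. They served here for a shared estimate of the spread and, where named, as plain values. The sources used here do not give the rats' age or the number of animals in a library. Libraries of 1 group are named biological replicates by the submitters, and every p-value measures the spread between these libraries only. The lines are kept as separate colonies, so the line itself cannot be told apart from anything else in which the colonies differ.

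FSL rats descend from Sprague-Dawley animals selected for sensitivity to a cholinesterase inhibitor, and FRL rats from those selected for resistance to it. FSL rats are used as a genetic model of depression. The dentate gyrus receives cortical input on its granule neurons, which pass it to CA3 through the mossy fibres, and the ventral hippocampus is tied to stress and mood in rodents. A dissected piece of this region also holds glia, vessels and, at its edge, meninges and choroid plexus. In such bulk tissue, fewer cells of a type and less RNA per cell cannot be told apart.

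The files give whole-number read counts per gene. Counts in genes summed to 6.15 to 7.57 M (mega) per FSL vehicle library and to 5.91 to 7.86 M per FRL vehicle library. Levels are counts per M counts in genes (CPM), scaled by TMM, a factor that aligns the bulk of the genes between libraries. A count of 3 in a library, taken as the detection floor, stood for 0.386 to 0.511 CPM in these 6 libraries. Intervals and floors of this kind cover counting error only. Of 17172 genes in the files, 11750 had enough counts to be tested.

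Levels of tissue markers differed between libraries, also within the FSL group. Dissection and line cannot be told apart as sources of these differences. Markers of the choroid plexus, the epithelium that secretes cerebrospinal fluid, had a mean of 6.40, 1.38 and 4.02 log2 CPM in FSL vehicle 1, 2 and 3 over the 14 of 15 that could be tested, against 1.11, 0.77 and 0.95 log2 CPM in FRL vehicle 1, 2 and 3. FSL vehicle 1 and 3 thus held far more of this epithelium's RNA than the others. The 14 tested meningeal and fibroblast markers reached a mean of 3.57, 5.65 and 7.25 log2 CPM in FSL vehicle 1, 2 and 3, against 3.65, 4.25 and 3.18 log2 CPM in FRL vehicle 1, 2 and 3. FSL vehicle 1 lay inside the FRL range on this measure, and the other two FSL libraries lay above it. Prox1, a transcription factor that marks dentate granule neurons, had 129, 51.6 and 69.4 CPM in FSL vehicle 1, 2 and 3, against 105, 10.4 and 74.8 CPM in FRL vehicle 1, 2 and 3. FRL vehicle 2 held the least granule neuron RNA, and the 8 markers of that cell in the files summed to 427 CPM there, against 708 to 1041 CPM over the FSL libraries and 773 and 1034 CPM in the other two FRL libraries.

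**Figure D1:**
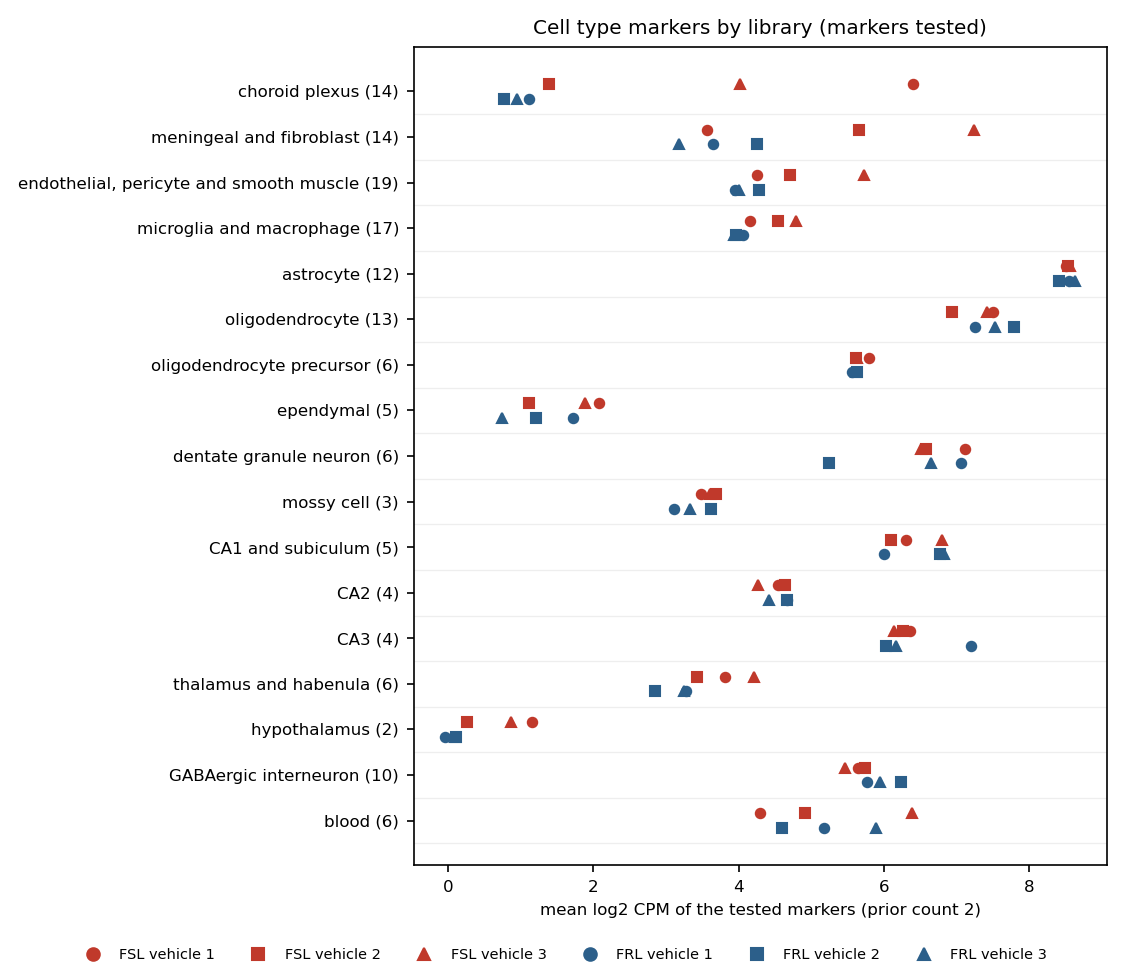
Mean log2 CPM (prior count of 2) of the tested markers of 17 cell types, 1 point a library, FSL vehicle in red above FRL vehicle in blue in each row, with the number of tested markers in parentheses. Choroid plexus markers reach 6.40 log2 CPM in FSL vehicle 1, meningeal markers reach 7.25 log2 CPM in FSL vehicle 3, and granule neuron markers are lowest in FRL vehicle 2.

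Few genes passed the threshold in the main fit, and some of these differed by a large amount. In FSL vehicle, Car3 and Rnase4 fell, and Ghdc, Mpeg1, Prelp, Cmc1, Sgms2 and Egf rose. These 8 genes, 0.0681% of those tested, passed an adjusted p of 0.05 (edgeR quasi-likelihood test, two-sided, Benjamini-Hochberg adjustment over all genes tested). The 6 higher genes were 0.0511% and the 2 lower ones 0.017% of the genes tested. In all 8 genes, the 3 FSL libraries lay on one side of the 3 FRL libraries, which the choice by p favours. Over all tested genes 7.57% lay wholly higher and 6.23% wholly lower in FSL. Unadjusted p was under 0.05 for 1631 genes, 13.9% of those tested, with 1099 higher and 532 lower in FSL vehicle. The median log2 fold change over all tested genes was -0.0083, with -0.32 at the 5th percentile and 1.05 at the 95th. The long side therefore lay with genes higher in FSL vehicle. The count rests on single libraries: it was 271, 11 and 6 without FSL vehicle 1, 2 and 3, and 3, 2 and 5 without FRL vehicle 1, 2 and 3. No gene passed with the choroid plexus marker level as a covariate in edgeR (smallest adjusted p = 0.0587, for Car3, and 1438 genes at an unadjusted p under 0.05). Without that covariate 168 passed in DESeq2 and 5 in limma-voom.

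**Figure D2:**
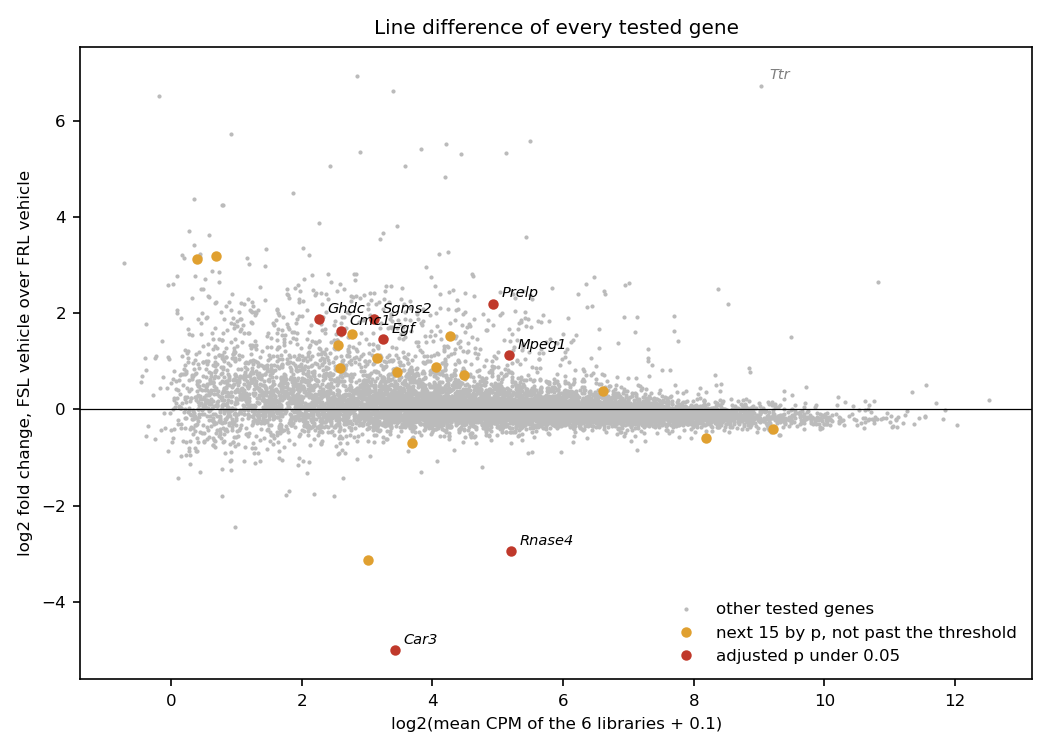
Log2 fold change, FSL vehicle over FRL vehicle, against log2 of the mean CPM of the 6 libraries plus 0.1, 1 point for each of the 11750 tested genes. Red points passed an adjusted p of 0.05 and orange points are the 15 genes of next smallest p. Car3 has the lowest fold change, -5.02, followed by Fcrl2 at -3.14 and Rnase4 at -2.95, while the choroid plexus gene Ttr, at 6.74, did not pass.

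Car3 showed the largest change among the genes past the threshold. It encodes carbonic anhydrase 3, a cytosolic enzyme with low carbon dioxide hydration activity that is abundant in skeletal muscle and fat. Car3 had 0.812, 0.258 and 0.840 CPM in FSL vehicle 1, 2 and 3, against 24.1, 14.7 and 23.3 CPM in FRL vehicle 1, 2 and 3. The raw counts behind these levels were 5, 2 and 6 in FSL vehicle and 187, 110 and 137 in FRL vehicle, so FSL vehicle lay close to the floor of 3 counts. The log2 fold change was -5.02 ± 0.43 (SE), or 32.3-fold lower in FSL vehicle (adjusted p = 0.00131). It kept its call without each of the 6 libraries in turn, with a log2 fold change between -5.29 and -4.62. The difference was as large with the choroid plexus covariate (-5.12 ± 0.60) and with the meningeal covariate (-5.17 ± 0.53), with adjusted p of 0.0587 and 0.0120. In FSL rats given LAC, Car3 lay between 0.396 and 1.59 CPM over 6 libraries.

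The other carbonic anhydrases did not share this fall. The list held 11 tested genes, Car3 included, and Car3 alone passed. Of the 11, 6 had a fold change above 0 and 5 below it, against 48.4% and 51.6% of all tested genes. Car2 is the main cytosolic form in oligodendrocytes and the nearest tested gene before Car3 on chromosome 2. It had 210, 106 and 137 CPM in FSL vehicle 1, 2 and 3, against 168, 217 and 174 CPM in FRL vehicle (log2 fold change -0.30 ± 0.24). Car13, the nearest tested gene after Car3, had 5.36, 11.6 and 10.9 CPM in FSL vehicle, against 3.86, 5.33 and 1.87 CPM in FRL vehicle (1.32 ± 0.74, adjusted p = 0.460). Neither passed the test. The neighbours of the other called genes are likewise the nearest tested genes in the RefSeq order, and untested genes may lie between. Car14, a membrane-bound form, had 1.19 ± 0.49 (adjusted p = 0.313), with its highest level, 22.9 CPM, in FSL vehicle 1, the library richest in choroid plexus markers. The part of that tissue in the Car14 value was not tested.

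Rnase4 was the other gene that fell. It encodes a small secreted ribonuclease of the ribonuclease A family, and in mouse and human it shares its promoter and first exons with Ang, the gene of angiogenin. Rnase4 had 11.2, 6.19 and 8.12 CPM in FSL vehicle 1, 2 and 3, against 63.2, 59.9 and 72.6 CPM in FRL vehicle 1, 2 and 3. The groups stood far apart, with 7.71-fold less in FSL vehicle (log2 fold change -2.95 ± 0.30, adjusted p = 0.00620). Its call held without each library in turn, at -3.19 to -2.76, and was lost at -3.00 ± 0.39 with the choroid plexus covariate (adjusted p = 0.0952). The LAC libraries of the same line held 6.07 to 13.8 CPM. Ang itself had 1, 1 and 0 counts in FSL vehicle and 3, 3 and 9 counts in FRL vehicle, too few to be tested. The spans of Ang and Rnase4 overlap in the RefSeq annotation of GRCr8, so reads in their shared exons may have been left out as ambiguous. Rnh1, the cytosolic ribonuclease inhibitor, was the only other tested gene of this family list and had 0.19 ± 0.10 (adjusted p = 0.415). Of the 12 family genes in the files, 10 had too few counts, and neither tested neighbour of Rnase4 on chromosome 15 passed.

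Promoter windows were available for 6 of the 8 genes past the threshold, as RefSeq gives them on the GRCr8 build, from 250 bases before the start to 50 bases after it. The 3 shown belong to the genes of smallest adjusted p with a window, and are given because Rnase4 fell while Ghdc and Mpeg1 rose. Capitals mark 2 promoter motifs on either strand, the CCAAT box and the GC box (GGGCGG, or its reverse complement). Rnase4 lies at chr15:26786037-26786336 on the plus strand, Ghdc at chr10:86198092-86198391 on the minus strand, and Mpeg1 at chr1:218876644-218876943 on the plus strand.
Rnase4: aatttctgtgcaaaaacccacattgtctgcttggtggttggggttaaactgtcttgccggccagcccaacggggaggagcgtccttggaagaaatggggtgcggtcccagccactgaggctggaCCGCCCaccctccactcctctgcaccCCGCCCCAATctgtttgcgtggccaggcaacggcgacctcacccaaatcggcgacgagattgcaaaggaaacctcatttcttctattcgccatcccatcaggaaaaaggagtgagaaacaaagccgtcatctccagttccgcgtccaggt
Ghdc: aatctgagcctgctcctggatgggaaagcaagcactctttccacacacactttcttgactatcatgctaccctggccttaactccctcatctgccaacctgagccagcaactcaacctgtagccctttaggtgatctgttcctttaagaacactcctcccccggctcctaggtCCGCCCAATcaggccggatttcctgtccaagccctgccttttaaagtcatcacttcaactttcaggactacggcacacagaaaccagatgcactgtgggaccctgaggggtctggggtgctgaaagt
Mpeg1: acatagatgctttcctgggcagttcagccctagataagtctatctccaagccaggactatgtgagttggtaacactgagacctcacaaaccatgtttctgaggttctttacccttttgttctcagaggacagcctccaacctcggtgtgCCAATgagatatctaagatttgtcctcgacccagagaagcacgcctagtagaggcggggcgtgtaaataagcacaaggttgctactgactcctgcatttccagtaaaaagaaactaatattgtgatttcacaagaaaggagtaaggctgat

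In the Rnase4 and Ghdc windows, the CCAAT box overlaps the end of a reversed GC box, so 1 capital run holds both. The CCAAT box occurred in 3 of the 6 windows and in 37.5% of all 33469 windows in the table. The GC box occurred in 3 of the 6 and in 33.1% of all. The TATA box (TATAAA) was in none of the 6 and in 14.2% of all. The start of Ang lies 54 bases from that of Rnase4, so their windows share 246 bases. These matches describe letters in a reference genome, and the windows of the FSL and FRL colonies were not analysed here.

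Among the genes that rose, Ghdc and Mpeg1 had the smallest p. Ghdc, a little-studied gene that encodes a protein with a GH3 domain, had 8.60, 6.58 and 7.14 CPM in FSL vehicle 1, 2 and 3, against 2.44, 2.0 and 1.53 CPM in FRL vehicle 1, 2 and 3. Every FSL library stood well above every FRL library, with a 3.67-fold difference (log2 fold change 1.87 ± 0.21, adjusted p = 0.00833). Its call was lost without FRL vehicle 2, at 1.87 ± 0.26 (adjusted p = 0.0856), and kept without each of the other libraries. It was kept with the meningeal covariate (1.89 ± 0.25, adjusted p = 0.0403) and lost with the choroid plexus covariate (1.78 ± 0.25, adjusted p = 0.0952). In the fit of the 6 libraries alone it was also lost, at 1.87 ± 0.28 (adjusted p = 0.440). Neither neighbour of Ghdc on chromosome 10 passed. Ghdc lay between 7.02 and 9.75 CPM in the LAC libraries.

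Mpeg1 encodes perforin-2, a pore-forming protein that macrophages and microglia use against bacteria. Mpeg1 had 45.6, 45.9 and 56.7 CPM in FSL vehicle 1, 2 and 3, against 24.1, 22.7 and 20.6 CPM in FRL vehicle 1, 2 and 3. The groups differed 2.20-fold (log2 fold change 1.14 ± 0.14, adjusted p = 0.0124). The level in FSL vehicle 1, 45.6 CPM, was close to that in FSL vehicle 2, and the highest level, 56.7 CPM, was in FSL vehicle 3. The mean microglia and macrophage marker level was 4.15, 4.55 and 4.79 log2 CPM in FSL vehicle 1, 2 and 3. It was 4.07, 3.97 and 3.94 log2 CPM in FRL vehicle 1, 2 and 3. All 17 tested markers of these cells had a higher fold change in FSL vehicle, with a median of 0.50. Unadjusted p was under 0.05 for 8, against 9.35% of all tested genes in that direction, and none passed. With the meningeal covariate 12 were higher and 5 lower, with a median of 0.14 and 2 at an unadjusted p under 0.05, and without FSL vehicle 3 the median was 0.31. Among them Csf1r, the receptor that keeps microglia alive, had 122, 125 and 171 CPM in FSL vehicle, against 108, 105 and 101 CPM in FRL vehicle (0.42 ± 0.14, adjusted p = 0.268). The log2 fold change of Mpeg1 lay above the median of its cells' markers and within their range of 0.02 to 1.84. The part of those cells in the Mpeg1 value was not tested. With the meningeal covariate Mpeg1 had 0.94 ± 0.13 (adjusted p = 0.0611), and without FRL vehicle 1, 2 or 3 its adjusted p was 0.0656, 0.0924 and 0.0737. It had 1.14 ± 0.17 with the choroid plexus covariate (adjusted p = 0.0952) and 1.13 ± 0.13 in the 6 libraries alone (adjusted p = 0.0708). Its neighbours on chromosome 1, Osbp and Dtx4, had -0.11 ± 0.07 and -0.38 ± 0.18.

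Of 15 tested genes in the list of pore-forming and lysosomal immune genes, all 15 had a higher fold change in FSL vehicle and Mpeg1 passed. The list median was 0.45, and 6 members had an unadjusted p under 0.05, against 9.35% of all tested genes in that direction. With the meningeal covariate the median was 0.16, with 11 of 15 higher and 2 at an unadjusted p under 0.05. Cd63, a tetraspanin of late endosomes, had 54.0, 68.1 and 101 CPM in FSL vehicle, against 43.5, 49.1 and 41.9 CPM in FRL vehicle (0.73 ± 0.19, adjusted p = 0.238). Lamp2, a major protein of the lysosome membrane, had 118, 130 and 159 CPM in FSL vehicle, against 116, 119 and 104 CPM in FRL vehicle (0.27 ± 0.10). The perforin and granzyme genes of lymphocytes in this list had too few counts to be tested.

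Prelp encodes a small leucine-rich proteoglycan that anchors basement membranes to connective tissue. It had 37.0, 37.2 and 75.9 CPM in FSL vehicle 1, 2 and 3, against 11.8, 13.3 and 7.15 CPM in FRL vehicle 1, 2 and 3. All FSL libraries stood above all FRL libraries, 4.60-fold on the fitted means (log2 fold change 2.20 ± 0.30, adjusted p = 0.0333). In FSL vehicle 1, where meningeal markers lay within the FRL range, Prelp stood at 37.0 CPM, above the FRL maximum of 13.3 CPM. That library was the richest in choroid plexus markers, with a mean of 6.40 log2 CPM against at most 1.11 log2 CPM in FRL vehicle. FSL vehicle 3, the library richest in meningeal markers, held 2.05 times the mean of the other two FSL libraries, and without it the log2 fold change was 1.77 ± 0.20 (adjusted p = 0.0169). With the meningeal covariate the log2 fold change was 1.78 ± 0.28 (adjusted p = 0.130). With both marker covariates it was 1.32 ± 0.34 and did not pass. Without FRL vehicle 1, 2 or 3 the adjusted p was 0.206, 0.113 and 0.101. The part of the surrounding tissues in the Prelp value was not tested beyond these fits. The LAC libraries of the same line held 14.4 to 30.7 CPM. A non-coding locus that overlaps Prelp in GRCr8 was not counted in the files, so reads from it cannot be told apart if the counting did not use strand.

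Prelp did not stand alone in its list. All 18 tested collagens and small leucine-rich proteoglycans had a higher fold change in FSL vehicle, with a median of 1.71, and 16 had an unadjusted p under 0.05, against 9.35% of all tested genes in that direction. Prelp passed and the other 17 did not. Dcn, or decorin, had 44.5, 94.2 and 173 CPM in FSL vehicle 1, 2 and 3, against 39.5, 41.1 and 34.4 CPM in FRL vehicle (1.44 ± 0.39, adjusted p = 0.242). Col5a2, a chain of type V collagen, had 59.2, 77.9 and 107 CPM in FSL vehicle, against 57.1, 38.8 and 32.9 CPM in FRL vehicle (0.92 ± 0.26, adjusted p = 0.248). Dcn and Col5a2 were highest in FSL vehicle 3 and barely above FRL vehicle in FSL vehicle 1, the order of the meningeal markers. Fmod, or fibromodulin, the nearest tested gene after Prelp on chromosome 13, had 2.45 ± 0.92 (adjusted p = 0.286). The list median was 0.77 without FSL vehicle 3, with 5 members at an unadjusted p under 0.05, and 0.25 with the meningeal covariate. Col1a2 was listed at 0 in all 6 libraries.

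Cmc1 encodes a small mitochondrial protein that, in human cells, binds the COX1 subunit while cytochrome c oxidase is put together. Cmc1 had 7.63, 10.7 and 8.82 CPM in FSL vehicle 1, 2 and 3, against 3.22, 2.13 and 3.41 CPM in FRL vehicle 1, 2 and 3. The groups differed 3.11-fold with no overlap (log2 fold change 1.64 ± 0.23, adjusted p = 0.0370). The value hardly moved with the meningeal covariate (1.63 ± 0.28) or the choroid plexus covariate (1.65 ± 0.27), with adjusted p of 0.172 and 0.125. The call was kept without FSL vehicle 1, and was lost without FSL vehicle 2 or 3 (adjusted p = 0.0824 and 0.0855) and without FRL vehicle 1, 2 or 3 (0.206, 0.176 and 0.0912). Neither neighbour of Cmc1 on chromosome 8 passed.

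The cytochrome c oxidase assembly list as a whole showed no such difference. Of 15 tested genes, Cmc1 included, 6 had a higher and 9 a lower fold change, with a median of -0.03. Cox16, another assembly factor, had 17.4, 17.3 and 23.1 CPM in FSL vehicle, against 14.2, 13.1 and 16.2 CPM in FRL vehicle (0.41 ± 0.13, adjusted p = 0.265). The structural genes of the respiratory chain were close to equal. Of 70 tested genes of oxidative phosphorylation, 66 had a lower fold change in FSL vehicle, with a median of -0.10 and a range from -0.21 to 0.05, and none passed. Without FSL vehicle 3, 35 of the 70 had a lower fold change and the median was -0.0020. Without FSL vehicle 2 all 70 did, with a median of -0.21.

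Sgms2 encodes a sphingomyelin synthase that moves a phosphocholine group onto ceramide at the plasma membrane. Sgms2 had 13.1, 9.29 and 17.9 CPM in FSL vehicle 1, 2 and 3, against 3.35, 4.80 and 2.73 CPM in FRL vehicle 1, 2 and 3. The fitted means differed 3.67-fold (log2 fold change 1.88 ± 0.27, adjusted p = 0.0374). In FSL vehicle 2, where choroid plexus markers were nearly as low as in FRL vehicle, Sgms2 stood at 9.29 CPM, above the FRL maximum of 4.80 CPM. That library lay above FRL vehicle in meningeal markers, with a mean of 5.65 log2 CPM against at most 4.25 log2 CPM. The part of these tissues in the Sgms2 value was not tested beyond the fits given here. With both marker covariates the log2 fold change was 1.14 ± 0.35 (adjusted p = 1.0). The call was lost without FSL vehicle 3 (1.61 ± 0.25, adjusted p = 0.0855) and without FRL vehicle 1, 2 or 3 (adjusted p = 0.213, 0.0902 and 0.155). In the LAC libraries Sgms2 lay between 6.07 and 12.1 CPM.

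The list of sphingolipid synthesis and breakdown split evenly. Of 28 tested genes, Sgms2 included, 14 had a higher and 14 a lower fold change, the median was 0.01, and Sgms2 alone passed. Degs2, a ceramide desaturase and hydroxylase, had 4.38, 4.64 and 6.30 CPM in FSL vehicle, against 3.35, 2.93 and 2.90 CPM in FRL vehicle (0.74 ± 0.26, adjusted p = 0.273). Asah1, the acid ceramidase of lysosomes, had 105, 103 and 128 CPM in FSL vehicle, against 93.7, 88.4 and 99.8 CPM in FRL vehicle (0.26 ± 0.09, adjusted p = 0.276). In both genes the 3 FSL libraries stood above the 3 FRL libraries by less than in Sgms2. Their choice by p favours such separation, and 7.57% of all tested genes lay wholly higher.

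Egf encodes the membrane-bound precursor of epidermal growth factor, the ligand of the receptor Egfr. Egf had 12.8, 10.7 and 17.6 CPM in FSL vehicle 1, 2 and 3, against 4.12, 4.53 and 6.30 CPM in FRL vehicle 1, 2 and 3. The fitted means differed 2.77-fold (log2 fold change 1.47 ± 0.22, adjusted p = 0.0405), the highest adjusted p of the 8. It stayed at 1.41 ± 0.26 with the meningeal covariate and 1.44 ± 0.27 with the choroid plexus covariate (adjusted p = 0.202 and 0.188). The call was lost without FSL vehicle 3 (adjusted p = 0.0869) and without FRL vehicle 1, 2 or 3 (0.213, 0.275 and 0.0523). Of 10 tested EGF family ligands and ErbB receptors, 7 had a higher and 3 a lower fold change. Erbb2, the co-receptor that binds no ligand of its own, had 6.98, 5.93 and 11.3 CPM in FSL vehicle, against 4.25, 3.60 and 4.26 CPM in FRL vehicle (1.0 ± 0.24, adjusted p = 0.210). Erbb4, a neuregulin receptor of interneurons, had 113, 103 and 97.4 CPM in FSL vehicle, against 103, 143 and 123 CPM in FRL vehicle (-0.24 ± 0.12). Egf was thus the only called gene of the list, and its receptor Egfr had 31.8, 39.0 and 36.1 CPM in FSL vehicle, against 31.0, 33.5 and 31.2 CPM in FRL vehicle (0.16 ± 0.09).

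Egf and Sgms2 lie near each other on chromosome 2, with 10 tested genes between them in the RefSeq order. Car3 lies on the same chromosome, which holds 3 of the 8 called genes and 6.84% of the tested genes. Of the 10 genes in between, 8 had a fold change above 0, with a median of 0.33, and none passed. Hadh, an enzyme of mitochondrial fatty acid oxidation among these 10, had 28.9, 39.3 and 38.1 CPM in FSL vehicle, against 23.0, 28.0 and 25.2 CPM in FRL vehicle (0.48 ± 0.15, adjusted p = 0.253). Over the 16 nearest tested genes on either side of the 8 called ones, the log2 fold changes ran from -0.40 to 2.45, and none passed. Fmod alone had an unadjusted p under 0.05, against 13.9% of all tested genes.

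**Figure D3:**
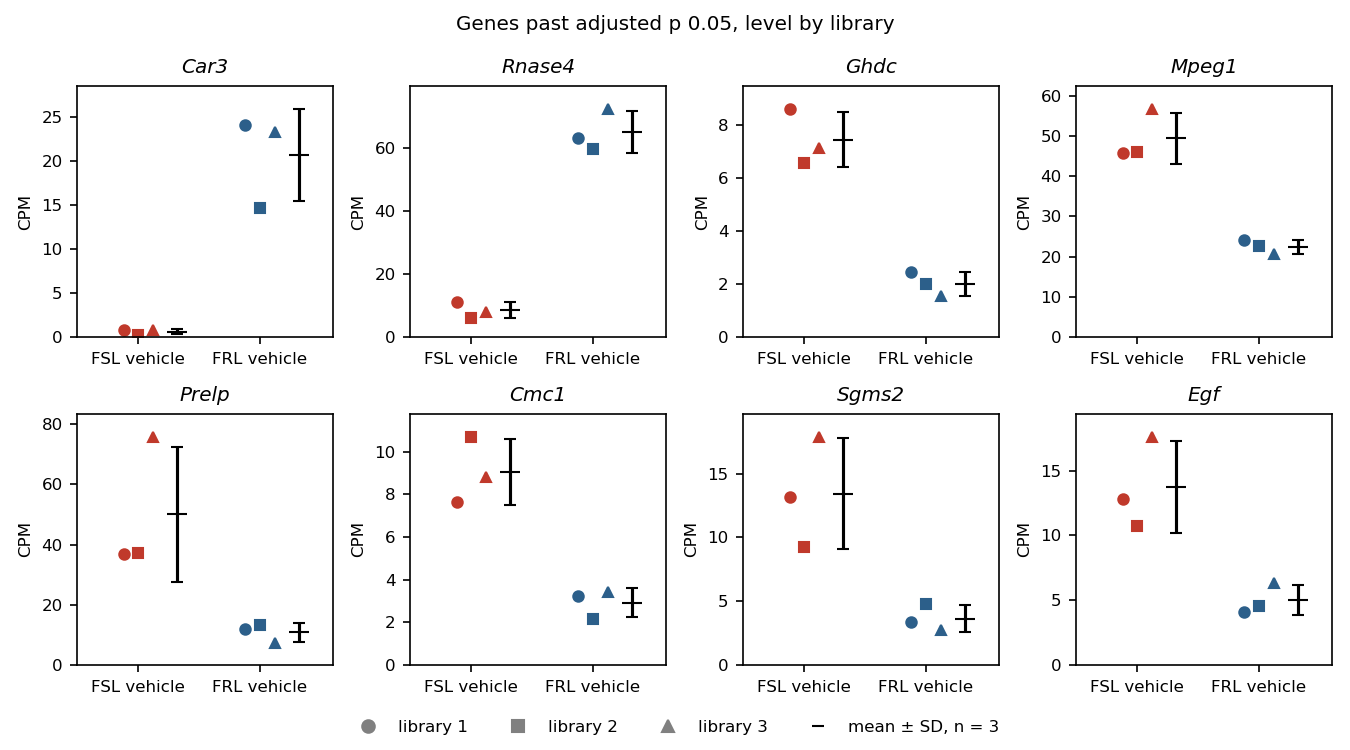
CPM of the 8 genes past an adjusted p of 0.05 by library, with FSL vehicle in red left of FRL vehicle in blue and the mean ± SD of 3 libraries as a bar beside each group. No group overlaps the other in any panel, which the choice by p favours, and Mpeg1, Prelp, Sgms2 and Egf are highest in FSL vehicle 3.

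The next 15 genes by p, with a mean of at least 1 CPM, missed the threshold at adjusted p of 0.0594 to 0.117. In 11 the fold change was higher and in 4 it was lower in FSL vehicle. The groups did not overlap in all 15, against 7.57% wholly higher and 6.23% wholly lower of all tested genes. The choice by smallest p favours such separation, so it adds no evidence. Without FSL vehicle 1 all 15 passed, and without FSL vehicle 2 or 3 and FRL vehicle 1, 2 or 3 the number that passed was 3, 1, 0, 0 and 1. None passed with either marker covariate. Their levels are given as values.

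Fcrl2, a member of the Fc receptor-like family, had 0.974, 0.645 and 3.22 CPM in FSL vehicle 1, 2 and 3, against 20.1, 12.7 and 10.2 CPM in FRL vehicle 1, 2 and 3 (log2 fold change -3.14 ± 0.51). After Car3 it had the lowest fold change among the named genes, although genes with close copies can lose reads that align to several places. Cym, or chymosin, a milk-clotting protease of the stomach, had 1.30, 1.93 and 3.36 CPM in FSL vehicle, against 0.257, 0.267 and 0.17 CPM in FRL vehicle (3.14 ± 0.50). Chmp4c, a subunit of the ESCRT-III membrane scission complex, had 2.27, 1.16 and 4.76 CPM in FSL vehicle, against 0.386, 0.267 and 0.17 CPM in FRL vehicle (3.20 ± 0.60). In both genes FRL vehicle lay at or under the floor of 3 counts, so their fold changes depend on very few reads.

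Trim45, a gene of the tripartite motif family of ubiquitin ligases, had 7.79, 8.38 and 8.54 CPM in FSL vehicle, against 2.83, 2.53 and 4.43 CPM in FRL vehicle (1.35 ± 0.22, adjusted p = 0.0612). Mthfs, an enzyme of folate metabolism, had 12.5, 9.42 and 13.9 CPM in FSL vehicle, against 4.63, 6.0 and 6.47 CPM in FRL vehicle (1.07 ± 0.18, adjusted p = 0.0807). Sft2d2, whose yeast relative acts in Golgi traffic, had 23.0, 21.3 and 40.9 CPM in FSL vehicle, against 10.9, 10.5 and 7.84 CPM in FRL vehicle (1.53 ± 0.25, adjusted p = 0.0594). All 3 genes were highest in FSL vehicle 3 among the FSL libraries, Sft2d2 by the widest margin.

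Other genes of this group had smaller fold changes. Exosc8, a core subunit of the RNA exosome, had 9.74, 9.67 and 9.80 CPM in FSL vehicle, against 15.6, 16.0 and 16.2 CPM in FRL vehicle (-0.71 ± 0.13). Cnot8, a deadenylase subunit of the CCR4-NOT complex, had 108, 119 and 104 CPM in FSL vehicle, against 86.3, 83.9 and 84.0 CPM in FRL vehicle (0.38 ± 0.07). Both belong to complexes that degrade RNA, and they differed in opposite directions. Pi4ka, the kinase that makes phosphatidylinositol 4-phosphate at the plasma membrane, had 546, 515 and 478 CPM in FSL vehicle, against 658, 681 and 698 CPM in FRL vehicle (-0.40 ± 0.07). Enpp5, of the ectonucleotide pyrophosphatase family, had 240, 256 and 200 CPM in FSL vehicle, against 323, 382 and 342 CPM in FRL vehicle (-0.59 ± 0.11). Glb1, the lysosomal beta-galactosidase, had 26.0, 25.0 and 31.9 CPM in FSL vehicle, against 17.5, 17.5 and 15.7 CPM in FRL vehicle (0.71 ± 0.13). Exosc8 was the tightest of these, with an SD of 0.0620 CPM in FSL vehicle and 0.315 CPM in FRL vehicle (n = 3 each). The others were Thnsl2 (0.79 ± 0.14), Zfp36, an mRNA decay factor (1.57 ± 0.28), RGD1306001 (0.86 ± 0.16) and Tmem123 (0.89 ± 0.17).

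**Figure D4:**
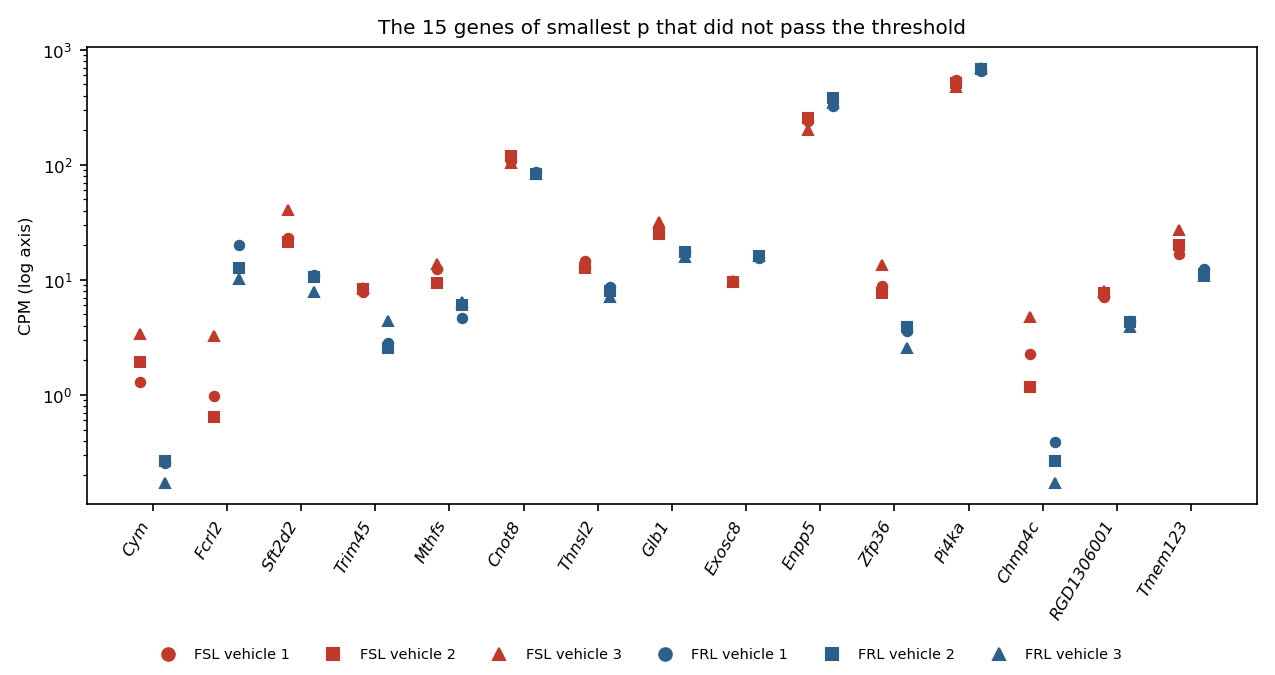
CPM on a log axis of the 15 genes of next smallest p, 1 point a library, FSL vehicle in red left of FRL vehicle in blue for each gene. The groups do not overlap in any of them, which their choice by p favours. Fcrl2, Exosc8, Enpp5 and Pi4ka are lower in FSL vehicle.

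A few genes had at least 3 counts in every library of 1 vehicle group and none in the other group. Genes with fewer counts in any library of the counted group were not listed. Cyp2d1, a cytochrome P450 of the drug-metabolising CYP2D family, had 7, 10 and 16 counts in FSL vehicle 1, 2 and 3 and 0 in each FRL vehicle library. Against the floor of 3 counts per library this is at least 3.60-fold higher in FSL vehicle (adjusted p = 0.0594). Its family member Cyp2d3 had 3, 6 and 12 counts in FSL vehicle and 0 in each FRL vehicle library, at least 2.27-fold higher against the same floor. The CYP2D genes are close copies, and reads that align to several of them were not counted, so both values are uncertain. Otop2, an otopetrin proton channel gene, had 0 counts in each FSL vehicle library and 3, 6 and 3 in FRL vehicle, where its lowest count equals the floor. The LAC libraries of the FSL line held 0 to 4 counts of Otop2. Cyp2d3 and Otop2 were singled out after their counts were seen.

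Cyp2d1 belongs to a list of 43 tested epoxide, glutathione and xenobiotic enzymes, in which 24 had a higher and 19 a lower fold change and none passed. Ephx2, the soluble epoxide hydrolase that breaks down fatty acid epoxides, had 2.43, 1.93 and 3.08 CPM in FSL vehicle, against 9.91, 9.60 and 6.30 CPM in FRL vehicle (-1.79 ± 0.36, adjusted p = 0.127). Ephx1, the microsomal epoxide hydrolase, had 34.7, 53.1 and 91.1 CPM in FSL vehicle, against 25.6, 24.8 and 22.1 CPM in FRL vehicle (1.30 ± 0.27, adjusted p = 0.164). The 2 hydrolases thus had opposite signs, each with no overlap between the lines, which their choice by p favours. In the list 8 genes lay wholly higher and 2 wholly lower in FSL vehicle, against 7.57% and 6.23% of all tested genes. Across the FSL libraries Ephx1 had the order of the meningeal markers, while Ephx2 was highest in FSL vehicle 3 and lowest in FSL vehicle 2. The part of meningeal tissue in either value was not tested.

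Genes of the tissue around the dentate gyrus had the largest fold changes and wide spreads. All 14 tested choroid plexus markers had a higher fold change in FSL vehicle, with a median of 4.96. Of these 11 had an unadjusted p under 0.05, against 9.35% of all tested genes in that direction, and none passed. Ttr, the transport protein transthyretin, had 2783, 19.5 and 289 CPM in FSL vehicle 1, 2 and 3, against 16.7, 3.07 and 8.86 CPM in FRL vehicle 1, 2 and 3 (6.74 ± 2.44, adjusted p = 0.280). The 15 choroid plexus markers in the files summed to 165 to 5147 CPM in FSL vehicle and to 142 to 188 CPM in FRL vehicle, and Otx2 was at 0 in all 6 libraries. FSL vehicle 2 lay inside the FRL range of this sum, and without FSL vehicle 1 the list median was 2.69 with 1 member at an unadjusted p under 0.05. Without FRL vehicle 1, 2 or 3 the number of such members was 2, 3 and 1. The 16 meningeal and fibroblast markers in the files summed to 334 to 3370 CPM in FSL vehicle and to 211 to 437 CPM in FRL vehicle. Their 14 tested members had a median log2 fold change of 2.46. All had an unadjusted p under 0.05, against 9.35% of all tested genes higher in FSL vehicle. Of the 14, 3 did not overlap between the lines, against 7.57% of all tested genes wholly higher. The median was 1.28 without FSL vehicle 3, and 2 of the 14 then had an unadjusted p under 0.05. Igf2, a growth factor made in meninges and choroid plexus, had 138, 324 and 1231 CPM in FSL vehicle, against 77.3, 146 and 73.3 CPM in FRL vehicle (2.51 ± 0.70, adjusted p = 0.245).

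Vessel markers had the same order as the meningeal markers within the FSL libraries, though not within the FRL libraries. Of 19 tested endothelial, pericyte and smooth muscle markers, 17 had a higher fold change in FSL vehicle, with a median of 0.76. Unadjusted p was under 0.05 for 14 higher members and 1 lower one, against 9.35% and 4.53% of all tested genes. Cldn5, the tight junction protein claudin-5 of brain endothelium, had 63.1, 81.1 and 89.9 CPM in FSL vehicle, against 48.5, 56.9 and 50.4 CPM in FRL vehicle (0.59 ± 0.16, adjusted p = 0.238). The list median was 0.45 without FSL vehicle 3, with 4 higher members at an unadjusted p under 0.05. With the meningeal covariate the median was 0.22 and 2 higher members had an unadjusted p under 0.05.

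Antigen presentation and complement genes had higher fold changes in FSL vehicle throughout. All 30 tested members did so, with a median of 1.0. Of these 18 had an unadjusted p under 0.05, against 9.35% of all tested genes in that direction, and none passed. Psmb9, a subunit of the immunoproteasome, had 2.92, 5.29 and 8.12 CPM in FSL vehicle, against 2.19, 2.0 and 2.56 CPM in FRL vehicle (1.28 ± 0.38, adjusted p = 0.251). RT1-A2, a rat MHC class I gene with close copies that make its count uncertain, had 16.7, 19.5 and 37.4 CPM in FSL vehicle, against 14.0, 11.5 and 9.88 CPM in FRL vehicle (1.05 ± 0.34). Cfb, complement factor B, had 9.90, 35.5 and 63.3 CPM in FSL vehicle, against 9.52, 13.7 and 8.52 CPM in FRL vehicle (1.77 ± 0.58). All 3 genes were lowest in FSL vehicle 1 and highest in FSL vehicle 3 among the FSL libraries, as the meningeal markers were. Without FSL vehicle 3 the list median was 0.45 with 1 member at an unadjusted p under 0.05, and with the meningeal covariate it was 0.04 with 17 members higher and 13 lower. The part of meningeal tissue in these values was not tested beyond these fits.

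Markers of hippocampal neurons, astrocytes and oligodendrocytes differed less. Of 6 tested granule neuron markers, none had an unadjusted p under 0.05, and the median was 0.25. This sign rested on single libraries, as the median was -0.0949 without FSL vehicle 1 and -0.0933 without FRL vehicle 2. Prox1 had 0.39 ± 0.82, and -0.0656 and -0.11 without these same libraries. The 12 tested astrocyte markers split 6 to 6, with a median of -0.05, and the 13 oligodendrocyte markers had a median of -0.29 with 11 lower and none at an unadjusted p under 0.05. The oligodendrocyte median was -0.13 without FSL vehicle 2 and likewise without FRL vehicle 2. Markers of the neighbouring fields CA3 and CA1 had medians of -0.34 over 4 tested genes and -0.31 over 5. Without FRL vehicle 1 the CA3 median was 0.20 with all 4 higher, and the CA1 median was -0.19 without FSL vehicle 3 and -0.0937 without FRL vehicle 3. Thalamus and habenula markers differed more, with 5 of 6 tested genes higher in FSL vehicle and a median of 0.78. Of these 3 had an unadjusted p under 0.05, against 9.35% of all tested genes in that direction, and none passed. Their median was 0.43 without FSL vehicle 3. The 5 tested ependymal markers had a median of 0.73, and of -0.0463 without FSL vehicle 1.

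GABAergic interneuron markers had lower fold changes in FSL vehicle in 10 of 10 tested genes, with a median of -0.29 and 4 at an unadjusted p under 0.05, against 4.53% of all genes in that direction. Lamp5, a marker of neurogliaform interneurons, had 28.1, 31.1 and 32.5 CPM in FSL vehicle 1, 2 and 3, against 49.2, 77.1 and 44.8 CPM in FRL vehicle 1, 2 and 3 (-0.90 ± 0.18, adjusted p = 0.127). Slc32a1, the vesicular GABA transporter, had 35.1, 25.9 and 33.2 CPM in FSL vehicle, against 40.5, 44.8 and 45.8 CPM in FRL vehicle (-0.48 ± 0.13, adjusted p = 0.238). Pvalb, or parvalbumin, a calcium buffer of fast-spiking interneurons, had 38.3, 43.0 and 30.9 CPM in FSL vehicle, against 38.6, 69.1 and 60.6 CPM in FRL vehicle (-0.58 ± 0.20, adjusted p = 0.268). FRL vehicle 2 was the highest library for Lamp5 and Pvalb, and without it the list median was -0.16, with 9 of 11 tested members lower. Without FSL vehicle 3 the median was -0.20. None of these genes passed.

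GABA receptors and neuropeptides leaned the same way with no member past the threshold. Of 14 tested GABA receptor genes 13 had a lower fold change in FSL vehicle, with a median of -0.13, but without FSL vehicle 3 they split 7 to 7. Of 39 tested neuropeptide and receptor genes 28 were lower, with a median of -0.26. That median was -0.0780 without FSL vehicle 3, and -0.13 and -0.15 without FRL vehicle 2 and 3. Nmbr, a bombesin-family receptor, had 2.60, 2.19 and 1.26 CPM in FSL vehicle, against 4.76, 2.53 and 4.94 CPM in FRL vehicle (-1.01 ± 0.38, adjusted p = 0.285). Npy, the peptide neuropeptide Y that the FSL literature often names, was listed at 0 in all 12 libraries, although interneurons of the hippocampus make it, so its level could not be read from these files.

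Energy metabolism genes differed by small amounts. Of 37 tested genes of glycolysis and the citrate cycle, 32 had a lower fold change in FSL vehicle, with a median of -0.15, and 10 were lower with no overlap, against 6.23% of all tested genes. Pkm, the pyruvate kinase of brain, had 1119, 1185 and 1029 CPM in FSL vehicle, against 1320, 1413 and 1222 CPM in FRL vehicle (-0.25 ± 0.08, adjusted p = 0.268). Idh2, the mitochondrial isocitrate dehydrogenase that makes NADPH, had 68.7, 78.7 and 90.1 CPM in FSL vehicle, against 61.2, 59.3 and 60.6 CPM in FRL vehicle (0.39 ± 0.10, adjusted p = 0.238). Without FSL vehicle 3 the glycolysis list median was -0.07.

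The carnitine shuttle carries fatty acids into mitochondria, and LAC is an acetylated form of its carrier. Of 36 tested genes of the shuttle and of fatty acid oxidation, 25 had a higher and 11 a lower fold change in FSL vehicle, with a median of 0.09, and of 0.0521 without FSL vehicle 3. Unadjusted p was under 0.05 for 8 higher and 2 lower members, against 9.35% and 4.53% of all tested genes, and none passed. Acat1, which makes and breaks acetoacetyl-CoA in mitochondria, had 123, 129 and 117 CPM in FSL vehicle, against 111, 102 and 95.4 CPM in FRL vehicle (0.26 ± 0.09, adjusted p = 0.276). Eci1, an enoyl-CoA isomerase, had 0.54 ± 0.18 and was highest, 24.9 CPM, in FSL vehicle 3. Cpt1a, the gatekeeper enzyme of the shuttle, had 62.2, 69.1 and 75.2 CPM in FSL vehicle, against 63.8, 58.3 and 55.4 CPM in FRL vehicle (0.22 ± 0.09, adjusted p = 0.299). Crat, carnitine acetyltransferase, which links carnitine and acetyl-CoA directly, had 136, 129 and 112 CPM in FSL vehicle, against 138, 131 and 117 CPM in FRL vehicle. Its log2 fold change was -0.03 ± 0.09, so the groups overlapped almost fully.

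Acetyl groups for histones come in part from the enzymes Acly and Acss2, which make acetyl-CoA outside mitochondria. Acly had 308, 330 and 302 CPM in FSL vehicle, against 382, 407 and 340 CPM in FRL vehicle (-0.27 ± 0.08, adjusted p = 0.251). Acss2 had 75.6, 80.5 and 75.9 CPM in FSL vehicle, against 91.9, 91.3 and 96.8 CPM in FRL vehicle (-0.27 ± 0.10, adjusted p = 0.273). Kat8, a histone H4 acetyltransferase, had 35.9, 34.7 and 30.9 CPM in FSL vehicle, against 40.7, 40.7 and 41.7 CPM in FRL vehicle (-0.28 ± 0.09, adjusted p = 0.268). In all 3 genes every FSL library lay below every FRL library, which their choice by p favours. Over the 27 tested genes of chromatin acetylation and methylation, 12 had a higher and 15 a lower fold change, the median was -0.02, and 5 were lower with no overlap, against the same 6.23% of all tested genes. The median was -0.0900 without FSL vehicle 3.

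**Figure D5:**
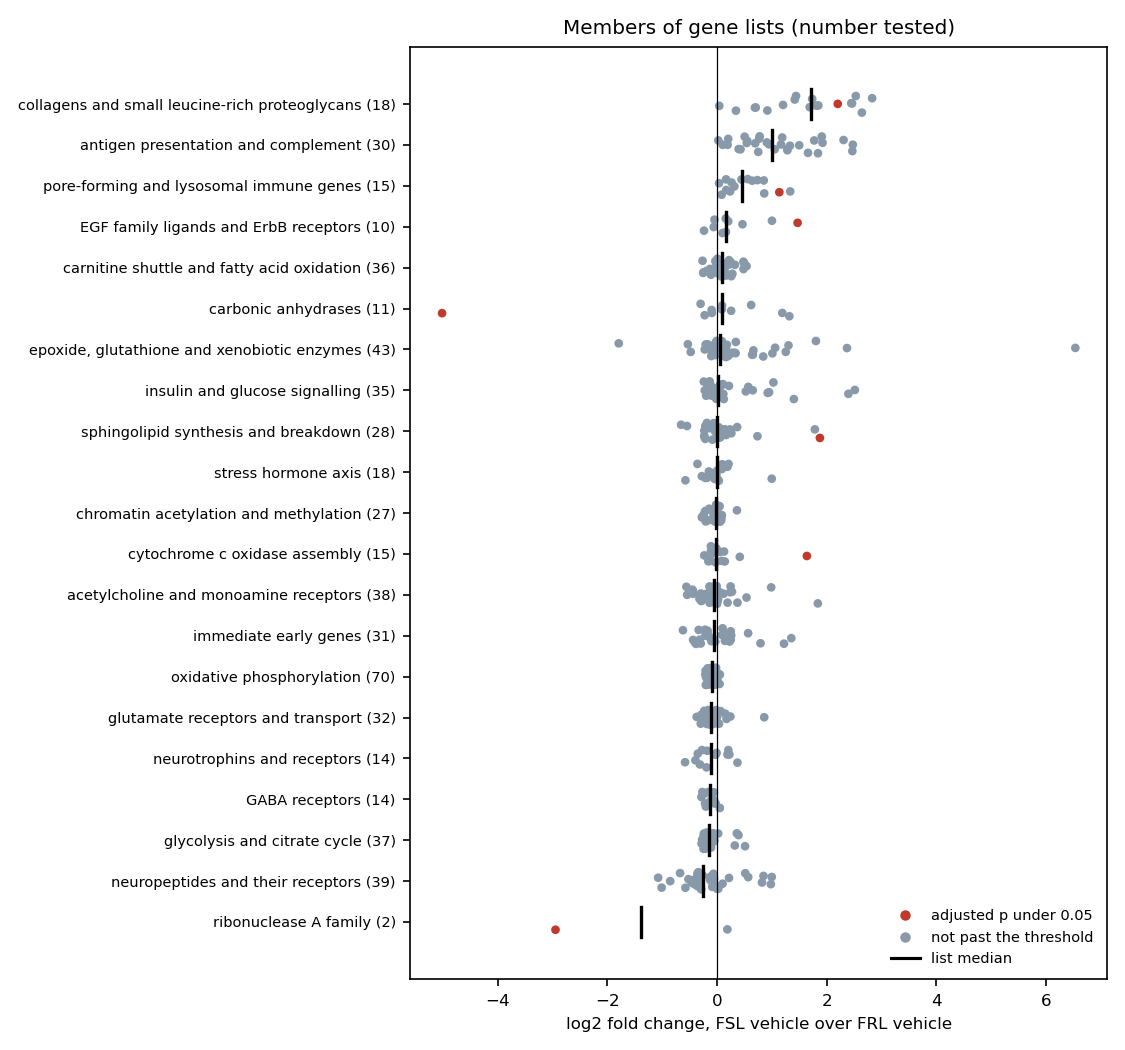
Log2 fold change, FSL vehicle over FRL vehicle, of each tested member of 21 gene lists, 1 point a gene, with the list median as a black bar and genes past an adjusted p of 0.05 in red. Collagens and proteoglycans (median 1.71) and antigen presentation and complement (median 1.0) lie right of 0, while oxidative phosphorylation (median -0.10) and glycolysis (median -0.15) lie just left of it.

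Genes that the field links to the FSL line, stress or mood showed no line difference past the test. Chrm1, the muscarinic M1 receptor, had 77.9, 76.5 and 65.0 CPM in FSL vehicle 1, 2 and 3, against 82.2, 83.2 and 76.0 CPM in FRL vehicle 1, 2 and 3 (-0.14 ± 0.10, adjusted p = 0.584). Chrm4, the M4 receptor, had the smallest p among 38 tested acetylcholine and monoamine genes, with 29.9, 20.8 and 24.6 CPM in FSL vehicle, against 24.8, 37.3 and 40.5 CPM in FRL vehicle (-0.45 ± 0.18, adjusted p = 0.306). Htr1a, the serotonin 1A receptor, had 37.7, 47.1 and 32.1 CPM in FSL vehicle, against 49.5, 25.5 and 32.4 CPM in FRL vehicle. The groups overlapped in all 3 receptors.

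Bdnf, a neurotrophin abundant in granule neurons, had 51.3, 64.5 and 39.3 CPM in FSL vehicle, against 70.3, 59.7 and 62.7 CPM in FRL vehicle (-0.31 ± 0.19, adjusted p = 0.50). Nr3c1, the glucocorticoid receptor, had 242, 233 and 257 CPM in FSL vehicle, against 226, 266 and 223 CPM in FRL vehicle (0.03 ± 0.12). Grm2, a presynaptic metabotropic glutamate receptor, had 94.8, 90.6 and 79.2 CPM in FSL vehicle, against 82.2, 99.6 and 119 CPM in FRL vehicle (-0.18 ± 0.24). Insr, the insulin receptor, had 103, 68.4 and 111 CPM in FSL vehicle, against 81.1, 89.2 and 103 CPM in FRL vehicle (0.05 ± 0.16). For each of these 4 genes the spread within a line was as wide as the gap between the lines. At this depth and with 3 libraries a line, a p that missed the threshold does not show that the lines were equal.

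Among 32 tested genes of glutamate receptors and transport, 24 had a lower fold change in FSL vehicle and none passed. The number lower was 19 without FSL vehicle 3, and with the meningeal covariate 19 were higher and 13 lower, with a median of 0.0553. Slc7a11, the cystine and glutamate exchanger, had 340, 620 and 821 CPM in FSL vehicle, against 388, 302 and 291 CPM in FRL vehicle (0.86 ± 0.27, adjusted p = 0.252). Grin1, the obligate subunit of NMDA receptors, had 487, 434 and 403 CPM in FSL vehicle, against 506, 506 and 512 CPM in FRL vehicle (-0.20 ± 0.09, adjusted p = 0.318). Slc7a11 was lowest in FSL vehicle 1 and highest in FSL vehicle 3, the order of the meningeal markers. Immediate early genes, which neurons and vessels switch on within minutes of stimulation, had a median of -0.06 over 31 tested, and of 0.27 with 23 higher without FRL vehicle 2. Klf2, a factor that endothelium expresses under flow, had 6.98, 11.2 and 18.1 CPM in FSL vehicle, against 5.15, 5.07 and 3.92 CPM in FRL vehicle (1.35 ± 0.40, adjusted p = 0.251).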

How the data were processed

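RNA sequencing of ventral dentate gyrus was analysed from raw read counts per gene, deposited by the authors 1 file a library and not normalized. Per the submitters' processing notes, the tools were TopHat2 2.0.9 and HTSeq 0.6.1, with Trimmomatic 0.33, FastQC 0.11.3 and edgeR 3.12.0, and the build was rn5, without roles. Per the labels, the libraries were stranded and depleted of ribosomal RNA. The sources used here do not give the annotation counted, or whether counting was by strand. The 5 summary lines entered neither library sizes nor tests: reads outside genes (48.0% to 52.7% of the reads in the 6 files), ambiguous reads (0.0756% to 0.106%) and reads with several alignments (24.7% to 28.4%).

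Groups were taken from the sample titles. Counts of all 12 libraries were fitted in R 4.3.3 with edgeR 4.0.16 (factors by TMM of 0.975 to 1.04 in the 6 libraries, default filter on the 4 groups, robust quasi-likelihood fit, 8 residual degrees of freedom), with FSL vehicle over FRL vehicle as the contrast, Benjamini-Hochberg adjustment and a threshold of 0.05. Biological variation between libraries had a common coefficient of 0.178. Values after ± are SE for log2 fold changes and SD for levels. Marker levels are mean log2 CPM with a prior count of 2. No 2 libraries of a group agreed within sampling noise.

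Named genes were all past the threshold, the next 15 by p with a mean of at least 1 CPM, up to 3 of smallest p in each list, 9 genes linked to the line or to carnitine and stress, the nearest tested neighbours of called genes, and Ttr, Prox1 and Dcn. Egfr, Ang, Cyp2d3 and Otop2 fall outside this rule and were named after their values were seen. All members, lists and marker sets were chosen with earlier results of these data known. RefSeq on GRCr8 served for gene order (16750 of 17172 symbols matched, 14508 as current symbols) and promoters. Alternatives were other scaling and filters, DESeq2 1.42.0, limma-voom (limma 3.58.1), the 6 libraries alone, a replicate block, marker covariates, each library left out, a threshold of 0.1 and, chosen after seeing the data, leaving out FSL vehicle 3 and FRL vehicle 2 together.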

Additional observations from a re-analysis of the deposited data

How the results depend on the processing

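The count of 8 genes past the threshold was 8 with RLE or upper quartile scaling and with a filter of 1 CPM in 3 libraries, and 11 with no filter, and all 8 genes were among those called in each. It was 168 in DESeq2 (127 higher and 41 lower, all 8 included), 5 in limma-voom (4 of the 8), 2 in a fit of the 6 libraries alone (Car3 and Rnase4), 21 at an adjusted p of 0.1, 3 with the meningeal covariate (Car3, Ghdc and Rnase4), and 0 with the choroid plexus covariate or with both. With both covariates the smallest adjusted p in edgeR was 0.783 and 409 genes had an unadjusted p under 0.05. Leaving out 1 library each gave 2 to 271 genes, with Car3 and Rnase4 in every one, and leaving out FSL vehicle 3 and FRL vehicle 2 together, chosen after seeing the data, gave 3, with Car3 and Prelp of the 8. In that setting Rnase4 had -2.98 ± 0.40 (adjusted p = 0.0887). The smaller fits have fewer libraries, and otherwise the cause was not tested. The shared numbers do not pair the libraries (same-number correlations of deviations 0.0573, 0.214 and -0.0781, and FSL vehicle 2 alone correlated best with its own number); with the replicate number as a block, 2 genes passed in the 6 libraries, Car3 and Rnase4.

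Among the named genes, fold changes of the other sign were seen only in genes not past the threshold. Over the fits without 1 library each, the log2 fold change ran from -0.0753 to 0.441 for Htr1a, -0.11 to 0.988 for Prox1, -0.0141 to 0.121 for Nr3c1, -0.0836 to 0.237 for Insr and -0.0957 to 0.0498 for Crat. Without FSL vehicle 3 and FRL vehicle 2 together it was -4.38e-06 for Prox1, -0.10 for Insr and 0.0588 for Crat. With the meningeal covariate it was -0.0235 for Nr3c1, 0.0524 for Crat and 0.12 for Grm2, and with the choroid plexus covariate -0.0772 for Insr. With both covariates it was -0.31 for Insr, 0.050 for Crat, 0.46 for Grm2, 0.0410 for Bdnf, -0.11 for Car13, -0.69 for Fmod, -0.27 for Igf2, 0.17 for Nmbr and -0.0115 for RT1-A2. Of 684 recomputed list medians, 610 moved by less than the SD between libraries of a group, 74 moved by more, and 76 of the 684 had the other sign. Under other scaling the sign changed in the stress hormone axis list alone, at 0.01 with upper quartile scaling. Genes near 3 counts a library are limited by depth.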
